A study of Mus musculus with 6 samples.

Results

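The branched-chain amino acids leucine, isoleucine and valine are broken down in mitochondria, and 10 genes of this breakdown were followed in mouse liver. They were found by their symbols in a table of 16140 genes, all 10 were present, and all 10 were among the 12173 genes with enough reads to be tested. They were chosen by their place in this pathway with earlier results of these data known, namely the measured fold changes between the groups, in which Ppm1k stood out. The differences are therefore given as a description, with the test of the fit over all genes, and support nothing further.

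The livers came from mice on a normal diet. The control livers carried floxed Selenoo alleles (genotype Selofl/fl) and no Cre, and the knockout livers carried the same floxed alleles with Alb-Cre, in which the albumin promoter drives Cre in hepatocytes. Both groups thus share the floxed alleles, no group has Cre alone, and an effect of Cre cannot be told apart from the loss of SelO, a mitochondrial selenoprotein. There were 3 bulk liver libraries per group, enriched for mRNA with oligo(dT), with between 15550289 and 18680195 estimated reads each; no source used here gives age or sex. The labels do not say that each library is a different mouse, so the p-values measure only the spread between these samples, which may be technical. Reads of Selenoo numbered 1413, 1630 and 1852 in control libraries against 117, 163 and 135 in knockout libraries. Hepatocyte markers, Alb among them, summed to between 126660 and 154030 TPM, a level scaled to transcript length and library, with overlapping groups. Singly they went both ways, with 5 positive and 2 negative log2 fold changes, from -0.36 to 1.48. Of the 7, 2 passed the test and were higher in knockouts, against 0.772% of all genes.

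As background, the first step is a reversible transamination by BCAT2, the mitochondrial aminotransferase, which is known to be scarce in hepatocytes and abundant in other tissues. The second step is irreversible and is carried out by the branched-chain ketoacid dehydrogenase complex, built from the E1 subunits BCKDHA and BCKDHB, the E2 core DBT and the E3 subunit DLD. The kinase BCKDK phosphorylates E1 and switches the complex off, and the phosphatase PPM1K removes the phosphate and switches it on. The paths then divide: IVD and the carboxylase of MCCC1 and MCCC2 act on the leucine branch, and ACADSB acts on the isoleucine branch. Liver is known for high dehydrogenase activity.

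The results turn on the phosphatase and kinase genes, so the promoters of these are shown, from 250 bases before to 50 bases after the transcript start in RefSeq (GRCm38.p6), read 5′ to 3′ on the strand of the gene. The Ppm1k window is chr6:57535438-57535737 on the minus strand and the Bckdk window is chr7:127903823-127904122 on the plus strand. Capitals mark CCAAT (or ATTGG, the same box on the other strand), GGGCGG and TATAAA (or TTTATA).
Ppm1k: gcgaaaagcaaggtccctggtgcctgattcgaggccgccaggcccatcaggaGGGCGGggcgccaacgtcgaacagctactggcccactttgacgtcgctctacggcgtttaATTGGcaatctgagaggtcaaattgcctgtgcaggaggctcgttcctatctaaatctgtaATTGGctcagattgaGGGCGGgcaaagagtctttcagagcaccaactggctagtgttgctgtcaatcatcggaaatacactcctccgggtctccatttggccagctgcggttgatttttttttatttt
Bckdk: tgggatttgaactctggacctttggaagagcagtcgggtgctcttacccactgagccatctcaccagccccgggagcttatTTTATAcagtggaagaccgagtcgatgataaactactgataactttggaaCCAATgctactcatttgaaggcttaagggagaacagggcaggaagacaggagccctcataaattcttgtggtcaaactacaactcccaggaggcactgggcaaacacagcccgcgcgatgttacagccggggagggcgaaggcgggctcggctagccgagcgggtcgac

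The Ppm1k window held 2 CCAAT boxes, first bases 138 and 78 bases before the start, and 2 GGGCGG boxes, and the Bckdk window held 1 CCAAT box, 1 TATAAA box and no GGGCGG. The RefSeq start of Ppm1k lies 65 bases inside the gene span of the deposited table, so these distances hold for the RefSeq start, while the starts of Bckdk coincide. Windows were listed for 9 of the 10 genes, 11 windows in all, with more than 1 for Bcat2 and Bckdhb. A gene was counted if any of its windows matched, while the shares over all promoters count single windows, so the units differ. Each motif was searched on both strands and counted whatever it overlapped. CCAAT was found in 6 of these 9 genes and in 37.4% of all 32851 RefSeq promoter windows, and GGGCGG in 4 of 9 genes and in 35.7% of windows. TATAAA occurred in Bckdk alone of the 9 (13.6% of windows) and the E-box CACGTG in Mccc2 alone (7.15% of windows). TGACGTCA (1.79% of windows), TCAAGGTCA (0.423%), the NRF1 element (0.971%) and an exact carbohydrate response element (0% of windows) matched none of the 9. These matches describe letters in the windows, and they show no binding.

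Ppm1k was higher in knockout livers and was the 1 gene of the 10 below the threshold of 0.05 on the p adjusted over all 12173 genes (edgeR's quasi-likelihood test with Benjamini-Hochberg adjustment). None of the 10 was lower past it, with edgeR or with DESeq2, and 1 was lower at an unadjusted p under 0.05. Over all genes 1.49% passed (0.772% higher and 0.715% lower). Since the choice of genes used this contrast, nothing is read from these shares. The fold changes of the 10 were positive in 7 and negative in 3, with a median log2 fold change of 0.0939 against -0.0179 over all genes. In CPM, counts scaled to the size of each library, the 2 groups did not overlap for 4 of the 10, namely Ppm1k, Bckdhb and Acadsb, which lay higher in knockouts, and Bcat2, which lay lower. Of all genes 25.2% had groups apart, 13.3% higher and 11.9% lower. The unadjusted p was under 0.05 for 3 of the 10 (Ppm1k, Bckdhb and Bcat2) and for 18.5% of all genes.

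**Figure D1:**
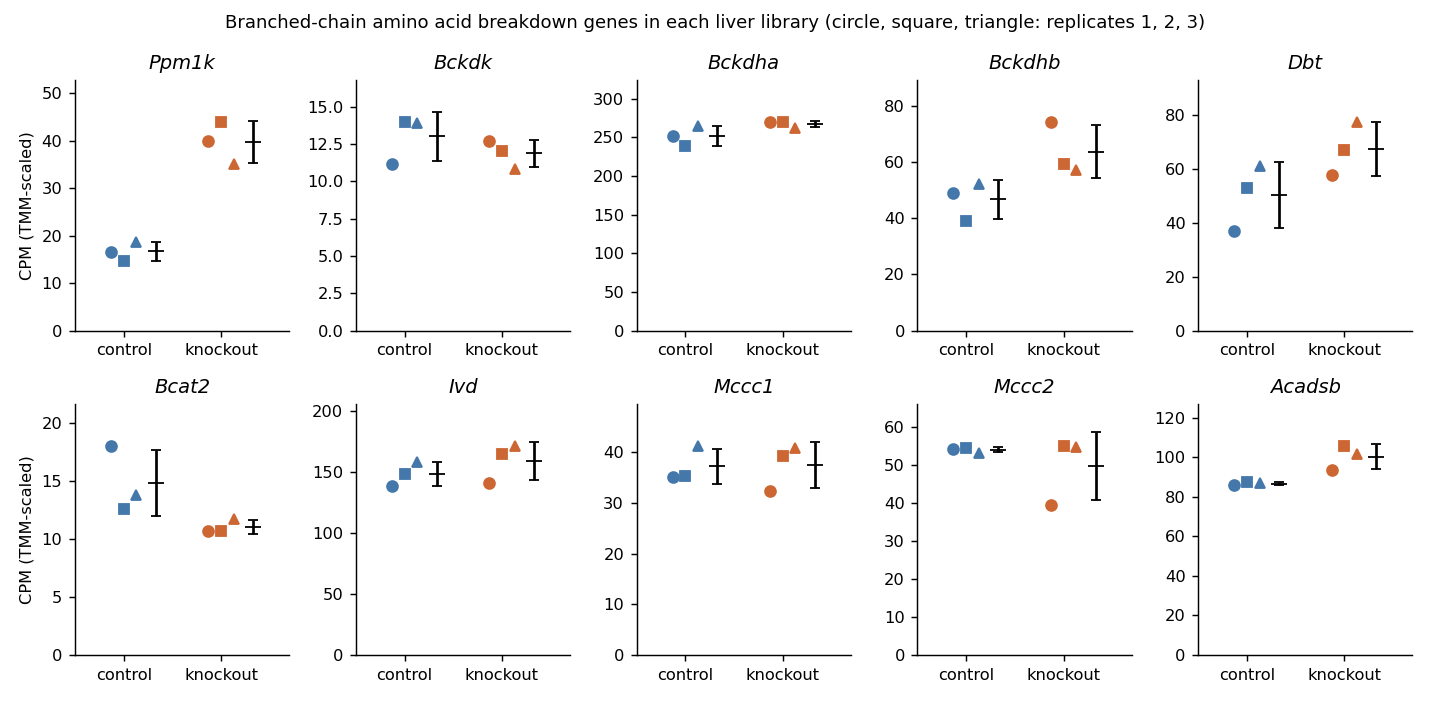
CPM of each gene in each library (vertical axes start at 0), with circles, squares and triangles for replicates 1, 2 and 3 of control (blue) and knockout (orange), and the mean with 1 SD in black. The 3 knockout libraries lie between 35.1 and 44.0 CPM for Ppm1k, above the controls at 14.6 to 18.7 CPM, and the groups overlap for 6 of the 10 genes.

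Ppm1k (NCBI Gene 243382, chr6:57506497-57535552, minus strand, GRCm38) encodes the phosphatase that activates the dehydrogenase complex. Estimated reads numbered 248, 283 and 361 in control livers against 744, 770 and 617 in knockout livers. In CPM the controls were at 16.6, 14.6 and 18.7 and the knockouts at 40.0, 44.0 and 35.1. Every knockout library was thus above every control, and the lowest knockout lay well clear of the highest control. The means were 16.7 ± 2.05 and 39.7 ± 4.48 CPM (SD, n = 3), a log2 fold change of 1.25 ± 0.15 (SE) and a fold of 2.38 (95% interval 1.89 to 2.99) (edgeR adjusted p = 0.00822). Only 14 of the 12173 genes had a smaller p, while 88 had a larger positive log2 fold change, 41 of which passed the threshold. In the authors' deposited table its log2 fold change was 1.26, with a q value of 1.02e-09; it was the 1 gene of the 10 with a q under 0.05 there, against 3.47% of all genes with a q.

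Ppm1k transcripts are long, with an effective length of 5304 bases, and the libraries differed in how abundance deviated with length. Across 12173 genes, Spearman's rho of that deviation was -0.30, -0.217 and 0.283 in control replicates 1, 2 and 3 and 0.268, 0.0762 and 0.0885 in the knockouts, where genes are not independent replicates. With each library's length trend removed, the log2 fold change of Ppm1k was 1.18 ± 0.13 (SE). In bulk RNA, fewer cells of a type and less RNA per cell cannot be told apart, for Ppm1k and for every gene below.

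Bckdk (NCBI Gene 12041, chr7:127904073-127909664, plus strand) encodes the opposing kinase. Its CPM was 11.1, 14.0 and 13.9 in control livers against 12.7, 12.1 and 10.9 in the knockouts. The groups overlapped, and control replicate 1 lay among the knockouts. The log2 fold change was -0.14 ± 0.15 (SE), with a 95% interval of -0.47 to 0.20 (edgeR adjusted p = 0.648). An interval of this width holds no change as well as a fall to 0.722 of the control level. Bckdk had 166 to 271 reads per library, and with single libraries left out its log2 fold change ran from -0.23 to -0.07.

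Because the phosphatase and the kinase act on the same subunit, their levels were set against each other per transcript length, as a ratio of TPM. Ppm1k stood below Bckdk in all 3 controls, with ratios of 0.733, 0.517 and 0.667, and above it in all 3 knockouts, with 1.54, 1.78 and 1.58. The mean ratio was 0.639 ± 0.111 in controls and 1.64 ± 0.128 in knockouts (SD, n = 3), a difference of 1.37 on the log2 scale. This difference rests on Ppm1k, whose level was known to differ, and it was not tested. The ratio concerns RNA and says nothing of enzyme activity or of phosphorylation.

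**Figure D2:**
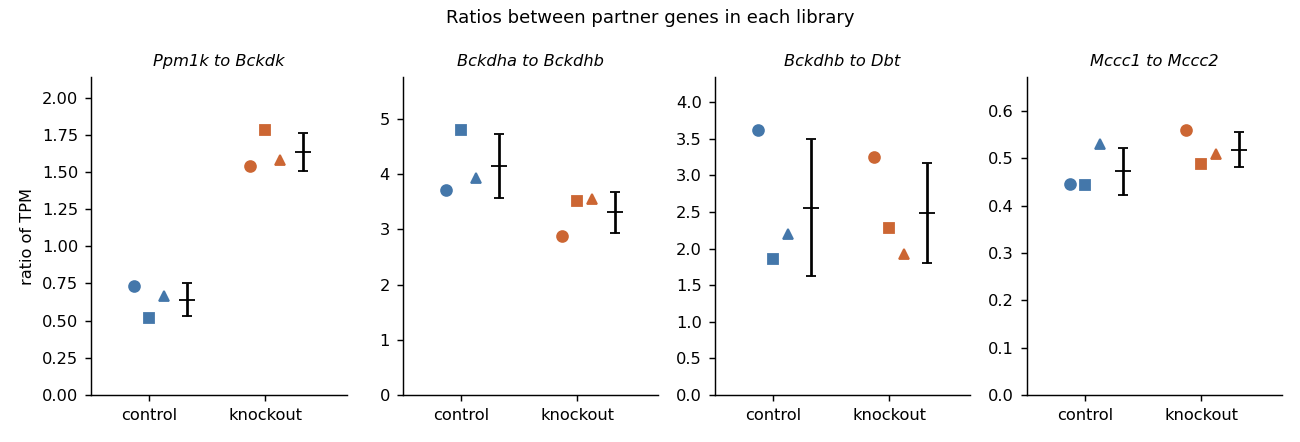
Ratio of TPM between partner genes in each library (vertical axes start at 0), with circles, squares and triangles for replicates 1, 2 and 3 of control (blue) and knockout (orange) and the mean with 1 SD in black. Ppm1k to Bckdk runs from 0.517 to 0.733 in controls and from 1.54 to 1.78 in knockouts, while the ratios of Bckdhb to Dbt and of Mccc1 to Mccc2 overlap between the groups.

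Among the subunits of the complex, Bckdha (NCBI Gene 12039, chr7:25629852-25658782, minus strand), the gene of E1 alpha, was the most abundant of the 10 genes per transcript length. Its controls varied by 5.27% in CPM (coefficient of variation) and more in TPM, at 172, 204 and 238. Its CPM was 252, 239 and 265 in control livers against 270, 270 and 263 in the knockouts, with knockout replicate 3 just below control replicate 3. The log2 fold change was 0.09 ± 0.13 (SE), 95% interval -0.20 to 0.37, edgeR adjusted p = 0.738. A change beyond 1.29-fold upward lies outside the interval.

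Bckdhb (NCBI Gene 12040, chr9:83925111-84124240, plus strand), the gene of E1 beta, had 48.9, 38.9 and 52.3 CPM in control livers against 74.3, 59.3 and 57.2 in the knockouts. All knockouts lay above all controls in CPM, but in TPM the groups crossed: control replicate 3, at 60.4, exceeded knockout replicate 3, at 58.7. The log2 fold change was 0.45 ± 0.16 (SE) (edgeR adjusted p = 0.188), so it did not pass. The ratio of Bckdha to Bckdhb in TPM was 3.71, 4.80 and 3.94 in controls and 2.88, 3.52 and 3.54 in knockouts, with means of 4.15 ± 0.575 and 3.32 ± 0.373 (SD, n = 3). The subunit ratio was thus lower in every knockout than in every control, by a narrow margin, and it was not tested.

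Dbt (NCBI Gene 13171, chr3:116513070-116549981, plus strand), the gene of the E2 core that carries the lipoate arm, spread most among the controls, with a coefficient of variation of 24.3%. Its CPM was 37.0, 53.0 and 61.0 in control livers against 57.5, 66.8 and 77.5 in the knockouts. Control replicate 1 was the lowest, and control replicate 3 lay above knockout replicate 1. The log2 fold change of 0.42 ± 0.19 (SE) did not pass (edgeR adjusted p = 0.292), and without control replicate 1 it was 0.24. The ratio of Bckdhb to Dbt overlapped between groups, from 1.86 to 3.62 in controls and from 1.92 to 3.25 in knockouts. Dld, which encodes the E3 subunit shared with other dehydrogenase complexes, had a log2 fold change of -0.02 ± 0.14 (SE) and overlapping groups.

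Bcat2 (NCBI Gene 12036, chr7:45568967-45589710, plus strand), the aminotransferase gene of the first step, had 18.1, 12.6 and 13.8 CPM in control livers against 10.7, 10.7 and 11.8 in the knockouts. Every knockout was below every control, in TPM as well, but control replicate 2 was only slightly above knockout replicate 3. The log2 fold change was -0.42 ± 0.16 (SE), or 0.747 of the control level (edgeR adjusted p = 0.218), and without control replicate 1 it was -0.26. Bcat1, the cytosolic aminotransferase, had 1 read in control replicate 2, 1 in knockout replicate 1 and 0 in the other libraries, where 0 allows up to 3 reads, or 0.161 to 0.193 CPM; it was too low to test.

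Summed markers of 3 other cell types were also lower in every knockout than in every control. The 7 T and NK cell markers summed to 6.19 to 11.6 TPM in controls and 2.33 to 4.17 in knockouts, the 5 B cell markers to 9.83 to 21.6 and 4.43 to 7.35, and the 7 endothelial markers to 162 to 168 and 139 to 155. Of their tested members 0 of 5, 1 of 4 and 1 of 7 passed, both lower in knockouts, with 4, 2 and 1 at an unadjusted p under 0.05 in edgeR's test, against 1.49% passing and 18.5% at that unadjusted p over all genes. The log2 fold change was positive for 1, 0 and 2 of these tested markers and negative for 4, 4 and 5. None of the markers of these 3 cell types was listed at 0 in any library. The part of these cells in the level of Bcat2 was not tested. The sums of the other 7 lists overlapped between the groups. All 7 Kupffer cell markers still had a negative log2 fold change, with 0 passing and 2 at an unadjusted p under 0.05 in edgeR's test. Adipocyte markers, for a tissue rich in BCAT2, summed to 37.2 to 75.1 TPM in controls and 28.2 to 45.6 in knockouts. Of these 6 markers, 3 were listed at 0 in at least 1 library. Only 3 were tested, and 0 passed in edgeR's test. All 3 had an unadjusted p under 0.05, 2 of them lower in knockouts and 1 higher. Skeletal muscle markers, all 6 listed at 0 in at least 1 library, reached at most 0.58 TPM in sum.

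Acadsb (NCBI Gene 66885, chr7:131410601-131448944, plus strand) encodes the short branched-chain acyl-CoA dehydrogenase of isoleucine breakdown. Its CPM was 85.9, 87.2 and 86.7 in control livers against 93.4, 106 and 101 in the knockouts. In CPM the controls were nearly alike, with a coefficient of variation of 0.779%, but in TPM they were at 28.9, 36.6 and 38.2. All knockouts were above all controls on both scales. The log2 fold change was only 0.21 ± 0.12 (SE), fold 1.16, and it did not pass (edgeR adjusted p = 0.382).

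On the leucine branch, Ivd (NCBI Gene 56357, chr2:118861959-118882909, plus strand), the isovaleryl-CoA dehydrogenase gene, had 139, 149 and 158 CPM in control livers against 141, 165 and 171 in the knockouts. The groups overlapped, and the log2 fold change was 0.10 ± 0.14 (SE), 95% interval -0.21 to 0.41. Mccc1 (NCBI Gene 72039, chr3:35955496-36000694, minus strand), the biotin-bearing subunit of methylcrotonyl-CoA carboxylase, had 35.2, 35.3 and 41.2 CPM in control livers against 32.2, 39.2 and 40.7 in the knockouts. Its log2 fold change of 0.01 ± 0.14 (SE, 95% interval -0.31 to 0.32) was the smallest of the 10, and its sign changed with the scaling.

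Mccc2 (NCBI Gene 78038, chr13:99948532-100015639, minus strand), the partner subunit, had 54.0, 54.5 and 53.2 CPM in control livers against 39.3, 54.9 and 54.7 in the knockouts. In CPM knockout replicate 1 stood below the other 5 libraries, which lay close together, whereas in TPM control replicate 1, at 30.1, lay next to it, at 27.7. Without knockout replicate 1 the log2 fold change of -0.12 ± 0.15 (SE) was 0.03. The ratio of Mccc1 to Mccc2 in TPM was 0.473 ± 0.0497 in controls and 0.519 ± 0.0372 in knockouts (SD, n = 3), with overlapping groups. For Ivd, Mccc1 and Mccc2 the adjusted p in edgeR's test was 0.717, 0.986 and 0.699.

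Per transcript length, the 10 genes spanned a wide range of RNA levels. Over the 6 libraries the mean was 212 TPM for Bckdha, 58.4 for Bckdhb, 56.5 for Ivd, 37.3 for Acadsb and 34.1 for Mccc2. It was 24.2 TPM for Dbt, 16.9 for Mccc1, 10.4 for Bcat2, 6.59 for Ppm1k and 5.96 for Bckdk. Bckdha stood above Bckdhb, Ivd above Acadsb and Mccc1 above Bcat2 with no overlap of their ranges over the 6 libraries. The neighbours Bckdhb and Ivd, Acadsb and Mccc2, and Ppm1k and Bckdk changed places in 3 of the 6 libraries each. Bckdhb and Ivd did so within both groups, so their order is not resolved. For the other pairs the order followed the group. Acadsb lay below Mccc2 in every control, by narrow margins, and above it in every knockout, and Ppm1k lay likewise against Bckdk. Ppm1k and Bckdk, which act on the state of the complex, had the lowest means. By the means within each group, Ppm1k was the lowest of the 10 in controls (3.91 ± 0.832 TPM) and passed Bcat2 in knockouts (9.27 ± 1.16 against 8.96 ± 0.430 TPM, SD, n = 3), where their libraries overlapped.

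**Figure D3:**
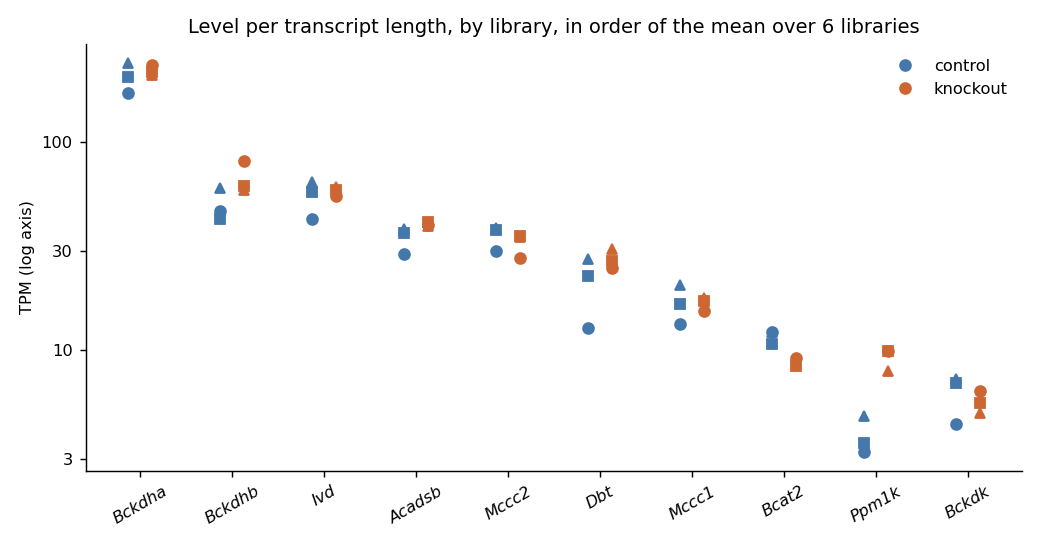
TPM of the 10 genes in each library on a log axis, ordered by the mean over 6 libraries, with controls in blue, knockouts in orange and circles, squares and triangles for replicates 1, 2 and 3. Bckdha lies between 172 and 238 TPM in all libraries, and Ppm1k moves from 3.27 to 4.85 TPM in controls to 7.93 to 9.98 TPM in knockouts.

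The other genes of the pathway and its supply were read from 8 lists with 48 genes, 47 of them tested. Of the 47, 1 was higher past the threshold, Ppargc1a, and none was lower; 8 reached an unadjusted p under 0.05. Over all genes these shares were 1.49% and 18.5%, so the 47 lie near the background, and the lists below are to be read against it. Their median log2 fold change was 0.00335, with 25 positive and 22 negative. The later steps of leucine breakdown held 0 of 4 called genes, those of valine and isoleucine 0 of 10, and the breakdown of propionyl-CoA, the shared product of the last pair, 0 of 7; at an unadjusted p under 0.05 these counts were 0, 0 and 2.

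Within the later steps, Hadha and Hadhb, the subunits of the trifunctional protein of fatty acid oxidation, had log2 fold changes of 0.29 ± 0.14 and 0.24 ± 0.14 (SE). Acat1, the thiolase that also serves ketone bodies, was at -0.08 ± 0.14, and Oxct1, the ketone-using enzyme that hepatocytes are known to lack, at -0.20 ± 0.24. Mmab and Mmadhc, both of cobalamin handling for methylmalonyl-CoA mutase, were at -0.55 ± 0.14 and 0.35 ± 0.13, with adjusted p of 0.0957 and 0.204 in edgeR's test. In CPM the groups did not overlap for Hadha, Hadhb and Mmadhc, higher in knockouts, and for Mmab, lower, as for 25.2% of all genes. Of these genes only Mmab had groups apart in TPM as well. Of the 7 propionyl-CoA genes 4 were positive and 3 negative.

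Genes that attach lipoate to DBT or handle biotin for MCCC1 held 0 of 5 called genes in edgeR's test, and 1 at an unadjusted p under 0.05. Lipt1, a lipoyltransferase gene, was at -0.39 ± 0.16 (SE), and Btd, the biotinidase gene, at 0.22 ± 0.14. For Lipt1 the groups lay apart in CPM but not in TPM, and for Btd in TPM but not in CPM. The electron transfer flavoprotein genes, which take electrons from IVD and ACADSB, also held 0 of 4, and 0 at an unadjusted p under 0.05, with Etfdh at 0.21 ± 0.14 and Etfb at -0.18 ± 0.19. The groups lay apart for Etfdh in CPM but not in TPM, and for Etfb in TPM but not in CPM.

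Transport genes held 0 of 6 called genes in edgeR's test, and 2 at an unadjusted p under 0.05, and had the lowest and, beside Ppargc1a, the highest log2 fold change of the 47. Slc43a1, which encodes the amino acid transporter LAT3, had 16.8, 17.7 and 19.3 CPM in control livers against 6.45, 9.32 and 12.6 in the knockouts. All knockouts were below all controls, the log2 fold change was -0.93 ± 0.22 (SE) and the adjusted p was 0.0724 in edgeR's test, just short of the threshold. It passed with the DESeq2 Wald test (adjusted p of 0.00584), and in the authors' deposited table its q value was 0.00767. Over the alternatives its adjusted p ran from 0.00584 to 0.251. Slc7a5, which encodes LAT1, was at 0.99 ± 0.33 (SE) at low levels, with 1.01 to 1.86 CPM in controls and 1.93 to 3.76 in knockouts. Its groups overlapped in TPM, and it did not pass (edgeR adjusted p = 0.157). Slc25a44, the mitochondrial carrier of branched-chain amino acids, was at -0.40 ± 0.18 (SE) with overlapping groups, and at -0.19 without control replicate 3.

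Among 9 regulators and related genes, Ppargc1a, a coactivator of mitochondrial and fasting genes, rose from 4.36, 4.34 and 5.50 CPM in the controls to 9.83, 10.7 and 11.7 in the knockouts. Every knockout was above every control. Its log2 fold change was 1.18 ± 0.16 (SE) (edgeR adjusted p = 0.0131). The gene no longer passed without control replicate 2 (adjusted p of 0.0510), knockout replicate 2 (0.0622) or knockout replicate 3 (0.0582); over all alternatives the adjusted p ran from 9.68e-06 to 0.0622. Ppara, a receptor for fatty acids, was at 0.53 ± 0.20 (SE), with groups apart in CPM but not in TPM, and did not pass (edgeR adjusted p = 0.202). Without control replicate 3 it was at 0.77 and did pass (0.0293, in a range of 0.0293 to 0.462 over the alternatives). This list held 1 of 9 called genes in edgeR's test, and 3 at an unadjusted p under 0.05, against 1.49% and 18.5% of all genes. Besides Ppargc1a and Ppara, the 3 included Sesn2, at 0.72 ± 0.29 (SE) (edgeR adjusted p = 0.229). The groups of Sesn2 lay apart in CPM, higher in knockouts, but not in TPM. Sesn2 falls outside the rule for named genes. So do Klf15 and Mlxipl, which are given for their known roles, with values already seen. Klf15, a factor known to drive this breakdown, was at 0.17 ± 0.19 with overlapping groups. Mlxipl, the gene of ChREBP, which is known to act on both Bckdk and Ppm1k in rodent liver, was at -0.42 ± 0.23 with overlapping groups.

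**Figure D4:**
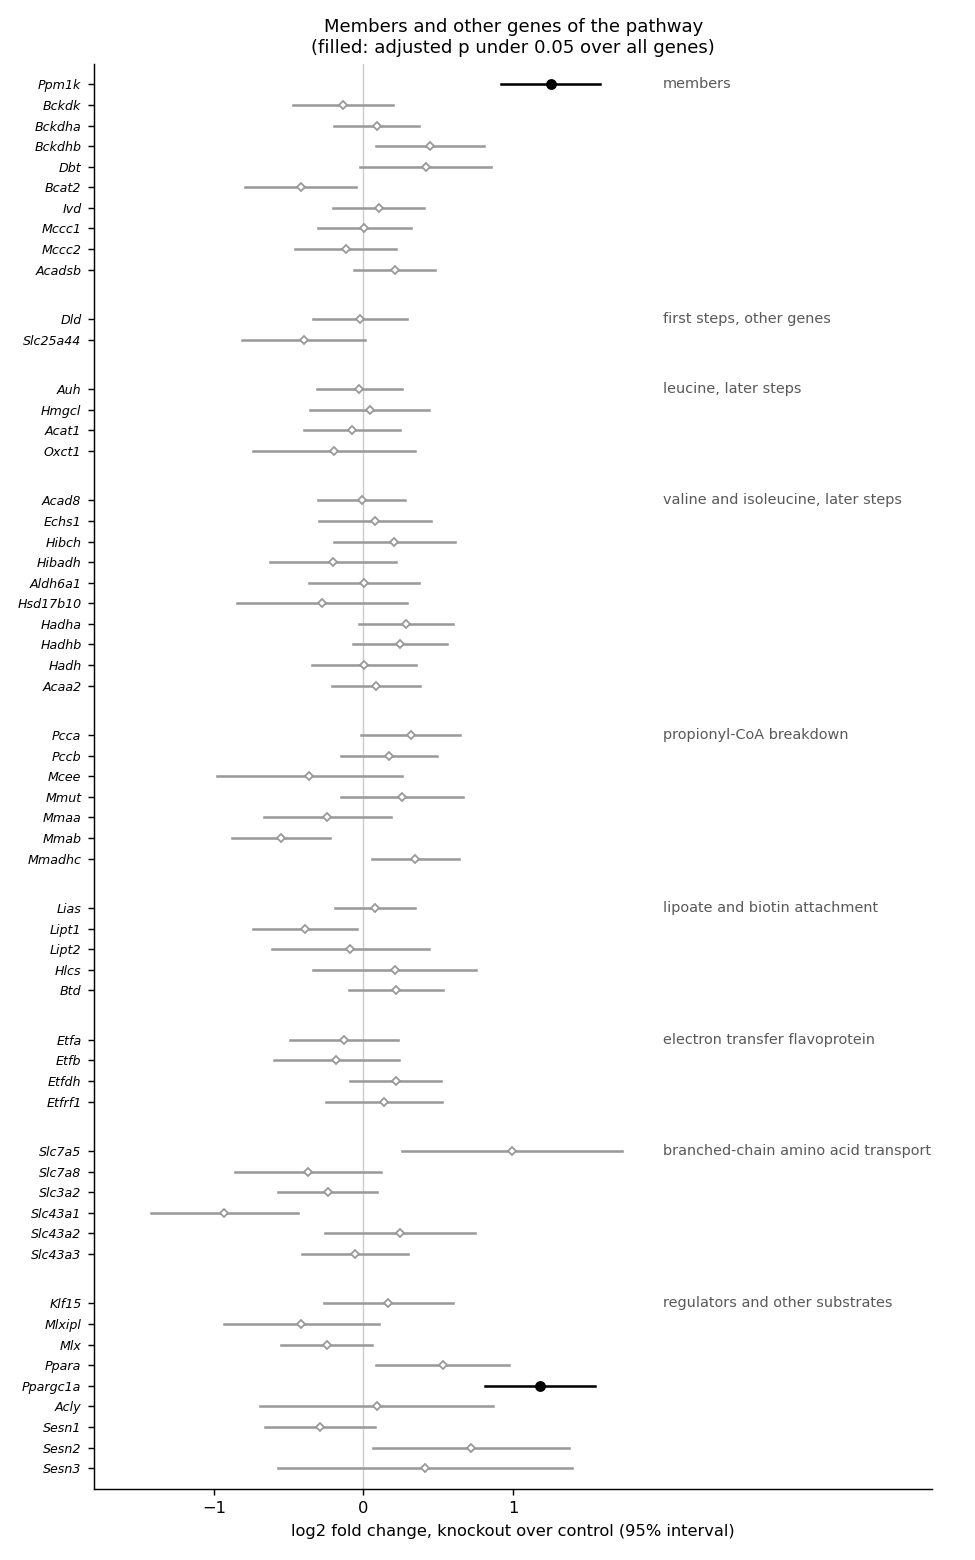
Log2 fold change of knockout over control with its 95% interval for the 10 members (top) and 47 other tested genes of the pathway by list, filled black where the adjusted p over all genes was under 0.05 and open grey otherwise. Ppm1k at 1.25 and Ppargc1a at 1.18 are the filled points, and most other intervals include 0.

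A wider set, the KEGG pathway of valine, leucine and isoleucine degradation in the deposited annotation, was added after the data were seen. It held 52 genes, 8 of them among the 10. Of its 40 other tested genes 1 was higher past the threshold and none was lower, against 1.49% of all genes passing. In edgeR's test 6 of the 40 had an unadjusted p under 0.05, 2 higher and 4 lower, against 18.5% of all genes. The median log2 fold change of the 40 was -0.00414, against -0.0179 over all genes. The 1 gene past the threshold was Ehhadh, a peroxisomal enzyme of fatty acid oxidation, named here after its value was seen. Ehhadh was at 1.52 ± 0.25 (SE) (edgeR adjusted p = 0.0241). It no longer passed without knockout replicate 1 (adjusted p of 0.0976), 2 (0.115) or 3 (0.0536); over all alternatives its adjusted p ran from 1.52e-07 to 0.115. Ppm1k and Bckdk are the members outside that set.

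The genes whose log2 CPM followed Ppm1k most closely over the 6 libraries were found by the root mean square difference of profiles, each centred on its own mean, among 11298 tested genes. The difference was 0.0708 for Clstn3, 0.129 for Jun, 0.135 for Chrna2, 0.154 for Abcd3 and 0.154 for Enc1 (log2 units). Clstn3 encodes a calsyntenin, Jun a transcription factor, Chrna2 a receptor subunit and Abcd3 a peroxisomal transporter. Nearest of all, Clstn3 had 3.42, 3.41 and 4.15 CPM in control livers against 9.78, 10.2 and 8.13 in the knockouts, with the same highest control (replicate 3) and highest knockout (replicate 2) as Ppm1k. Such a list favours genes with a fold and an order of libraries near those of Ppm1k, so a shared highest replicate adds nothing to it. The folds of these 5 ran from 2.06 to 2.55. The 10 members were left out of this search beforehand, so it cannot show whether any of them follows Ppm1k. None of the 5 is on the other pathway lists.

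**Figure D5:**
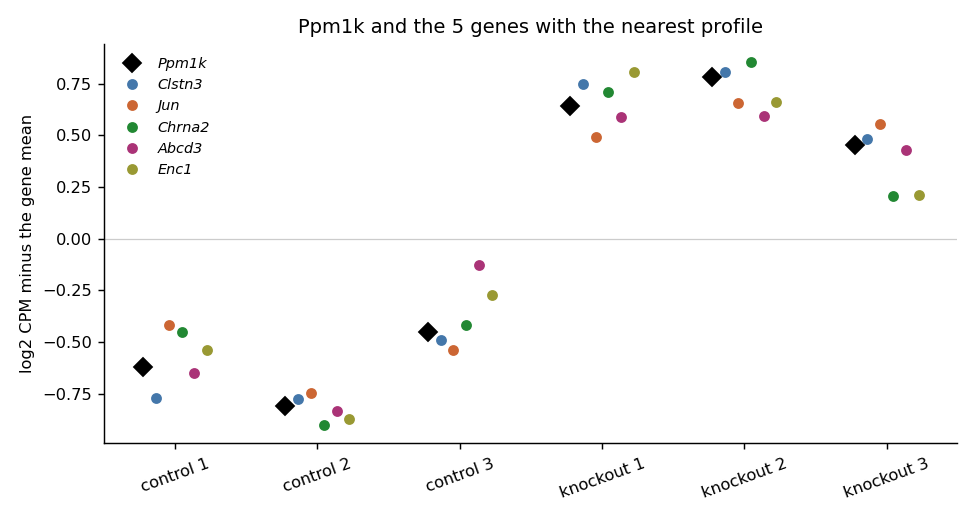
Log2 CPM minus the mean of the gene over 6 libraries, for Ppm1k (black diamonds) and the 5 genes with the nearest profile (coloured circles), by library. All 6 genes lie below 0 in the 3 controls and above 0 in the 3 knockouts, and over all 6 libraries Clstn3 is nearest to Ppm1k, with a root mean square difference of 0.0708.

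Within the groups the 10 genes did not move as one. Of the 10, control replicate 1 held the lowest control value in 5 and control replicate 2 in 4, while control replicate 3 held the highest in 6. Among knockouts, replicate 1 was the lowest in 5 and replicate 3 in 4. The median deviation of the 10 genes from the control mean was -0.00616, -0.0346 and 0.0975 in control livers against 0.0349, 0.128 and 0.172 in the knockouts (log2), so that control replicate 3 lay within the range of the knockouts.

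By position, 4 of the 10 genes (Bckdk, Bckdha, Bcat2 and Acadsb) lie on chromosome 7 and 2 (Dbt and Mccc1) on chromosome 3. In the RefSeq annotation, 5 of the 10 share bases of their whole span with a noncoding gene or pseudogene: Ppm1k by 2 bases, Bckdhb by 21783 and 107, Dbt by 1532, Bcat2 by 6210 and Mccc1 by 782. None of those genes is in the deposited table, and the strand setting of the counting is not given in the sources used here, so reads of such partners cannot be told apart from those of the members. The overlap of 2 bases in Ppm1k is the shortest of them.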

How the data were processed

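Liver RNA enriched with oligo(dT) was sequenced in 3 control and 3 knockout libraries. HISAT2, Bowtie2 and RSEM 1.3.1 are named per the submitters' processing notes, with the build GRCm38. Their order and the strand setting were not stated there. Per the file headers, the authors deposited estimated counts, FPKM and TPM per gene and library, with DESeq2 log2 fold changes, p-values and q-values. Columns were matched to samples by group and number, and no per-sample column was left over (0).

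Estimated counts (4.70% to 5.12% of values per library not whole) were rounded. Genes were filtered with filterByExpr, scaled with TMM and tested in edgeR 4.0.16 (R 4.3.3) by quasi-likelihood F tests, genotype as the only term, with Benjamini-Hochberg adjustment over 12173 genes. Standard errors came from the F statistic and 95% intervals from its t distribution. All pairs of libraries differed by more than counting noise (smallest chi-square over its degrees of freedom 18.9). A count of 0 allows up to 3 reads, for counting error only. The edgeR, DESeq2 and limma fits were tested on simulated counts with known fold changes.

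The members, lists and tests were chosen with earlier results of these data known. Named genes were the 10 members, Selenoo, and from each other list all called genes and the 2 with the smallest p. The 5 nearest Ppm1k in profile were also named, leaving out the members and predicted models. Alternatives were other scalings (DESeq2 size factors, upper quartile), filters (none, or 1 CPM in 3 libraries), tests (DESeq2 1.42.0, limma-voom and, on log2(FPKM + 1) and log2(FPKM + 0.1), limma 3.58.1), the replicate block, removal of the length trend, an adjusted p of 0.1 and each library left out. Effective lengths came from the deposited counts and FPKM.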

Additional observations from a re-analysis of the deposited data

How the results depend on the processing

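Ppm1k kept its direction and its call under all 17 alternative fits, with a log2 fold change from 0.979 (on log2(FPKM + 1)) to 1.35 (without control replicate 3) and an adjusted p from 7.35e-10 to 0.0452. The count of members called was 1 in every alternative, leaving out each library included. Of 170 values over the 10 members and these alternatives, 160 kept direction and side of the threshold and 10 changed sign, in Mccc1 and Mccc2, whose changes were near 0. Mccc1 was -0.0322 with upper-quartile scaling, -0.00379 with the length trend removed, -0.00727 with the block as well, -0.0484 on log2(FPKM + 1) and -0.0514 on log2(FPKM + 0.1). With single libraries left out Mccc1 ran from -0.0588 to 0.104, Mccc2 from -0.196 to 0.0257, Dld from -0.0989 to 0.0810 and Etfb from -0.297 to 0.0545. The median of the members ran from 0.0393 to 0.142, and the log2 difference of the ratio of Ppm1k to Bckdk from 1.22 to 1.47.

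The count over all genes, 181, was 330 with no filter, 280 with the length trend removed, 634 with the DESeq2 Wald test, 110 on log2(FPKM + 1), 126 on log2(FPKM + 0.1), 513 at an adjusted p of 0.1 and 43 to 667 with single libraries left out. The share of higher calls was 51.9%, and ran from 41.3% on log2(FPKM + 0.1) to 58.5% with the DESeq2 Wald test and 60.9% without control replicate 3. The count of other pathway genes, 1, was 2 with no filter and with the DESeq2 Wald test (Slc43a1 joined in both), 3 at an adjusted p of 0.1, and 0 to 2 with single libraries left out. With the replicate number as a block, 87 genes passed, Ppm1k among them (adjusted p of 0.0452). The labels do not say that numbers mark pairs, and deviations from the group means of same-numbered libraries correlated across genes at -0.16, -0.0787 and -0.0762; no library correlated best with its own number. Ehhadh did not pass with the block (adjusted p of 0.0667). Depth left Bcat1, with at most 1 read per library, untested.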
